A study of Mus musculus with 7 samples.

Results

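The serpins of the mouse uterus were described in RNA sequencing of whole uteri from untreated, 2-month-old mice of the outbred CD-1 stock. The members were the rows of the deposited table whose symbol is Serpin followed by a clade letter from a to i, a number and an optional letter: 62 of the 31274 rows. Clade A held 24 of them, clade B 27, clade E 3, clades F and I 2 each, and clades C, D, G and H 1 each; the pseudogene row Serpina4-ps1 did not match and was not used. There were 4 diestrus and 3 estrus libraries, and neither group carried a transgene or a treatment. Whether the libraries represent separate animals is not in the labels, so every p-value reflects only how far the libraries vary, and that variation may be technical. Values are FPKM (fragments per kilobase of transcript, scaled to the mapped fragments of the library), which allow levels of different genes to be compared per length.

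Serpins are a family of proteins named for serine protease inhibition. An inhibitory serpin offers an exposed stretch, the reactive centre loop, to a protease; the protease cuts it and is trapped in a covalent complex, and the residues around the cut decide which protease is caught. Clade A holds secreted inhibitors such as antitrypsin, clade B inhibitors that mostly stay inside the cell, and the other clades include regulators of clotting, fibrinolysis and complement as well as members that inhibit no protease. Estrus follows the peak of estradiol in the rodent cycle, and progesterone prevails in diestrus.

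The antitrypsin genes Serpina1a to Serpina1e show how closely some members resemble each other, which bears on how reads can be divided among them. Below is the coding sequence of the reactive centre loop region, coding bases 1078 to 1167 of 1239 (coding strand, GENCODE M21 on GRCm38, all on chromosome 12), with capitals at each base where the 5 copies are not all alike.
Serpina1a: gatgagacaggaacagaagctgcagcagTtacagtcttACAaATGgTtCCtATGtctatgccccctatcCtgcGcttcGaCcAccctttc
Serpina1b: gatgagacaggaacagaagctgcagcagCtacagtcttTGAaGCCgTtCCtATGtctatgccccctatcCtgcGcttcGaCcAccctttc
Serpina1c: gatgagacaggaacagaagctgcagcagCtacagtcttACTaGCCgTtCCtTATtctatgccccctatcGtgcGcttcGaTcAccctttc
Serpina1d: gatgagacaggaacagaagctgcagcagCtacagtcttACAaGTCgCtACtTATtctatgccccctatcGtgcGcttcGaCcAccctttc
Serpina1e: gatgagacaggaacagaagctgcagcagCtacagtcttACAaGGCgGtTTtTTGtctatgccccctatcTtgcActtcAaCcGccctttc
In this region 18 of 90 bases (20.0%) varied among the copies, against 68 of the other 1149 coding bases (5.92%). Over the whole coding sequence the 10 pairs of copies were 96.3% to 98.5% identical. Of all stretches of 50 bases in a Serpina1 transcript, 34.2% (Serpina1b) to 73.3% (Serpina1c) also occurred in another serpin transcript, so the split of reads between the copies is uncertain. The share was 16.02% for Serpina3g, 24.4% for Serpina3h, 6.90% for Serpina3n and 3.42% for Serpinb1a, and no stretch was shared for Serpina9, Serpinb5, Serpinb8, Serpine2, Serpinf1, Serping1 or Serpinh1.

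Few serpins carried most of the serpin RNA, and the 4 most abundant members did not pass the main test between the phases. Of the 62 members, 15 were listed at 0 in all 7 libraries, 25 were above 0 but did not reach 1 FPKM in 3 libraries, and 22 passed this filter and were tested. With limma, a linear model fitted to all 13920 tested genes on log2(FPKM + 1), 4 of the 22 tested members rose in estrus (Serpinb5, Serpina9, Serpinb8 and Serpinb1a) and 2 fell (Serpine2 and Serpini1) at a Benjamini-Hochberg adjusted p under 0.05. Among all tested genes 31.1% were called, 17.2% higher and 14.0% lower in estrus, a balance that depended on the scaling (2141 higher and 2125 lower with median-ratio scaling, 1684 and 1914 with quantile normalization); the 6 called members are 27.3% of those tested, near that background. The 3 estrus values lay all above or all below the 4 diestrus values for 7 tested members (31.8%), against 40.6% of all tested genes. The median log2 fold change, estrus minus diestrus, was 0.0028 for the tested members and 0.048 for all tested genes. With each library left out in turn there were 3 to 4 rises and 1 to 4 falls: 1 fall without estrus replicate 1 or estrus replicate 2 and 4 falls without diestrus replicate 1.

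**Figure D1:**
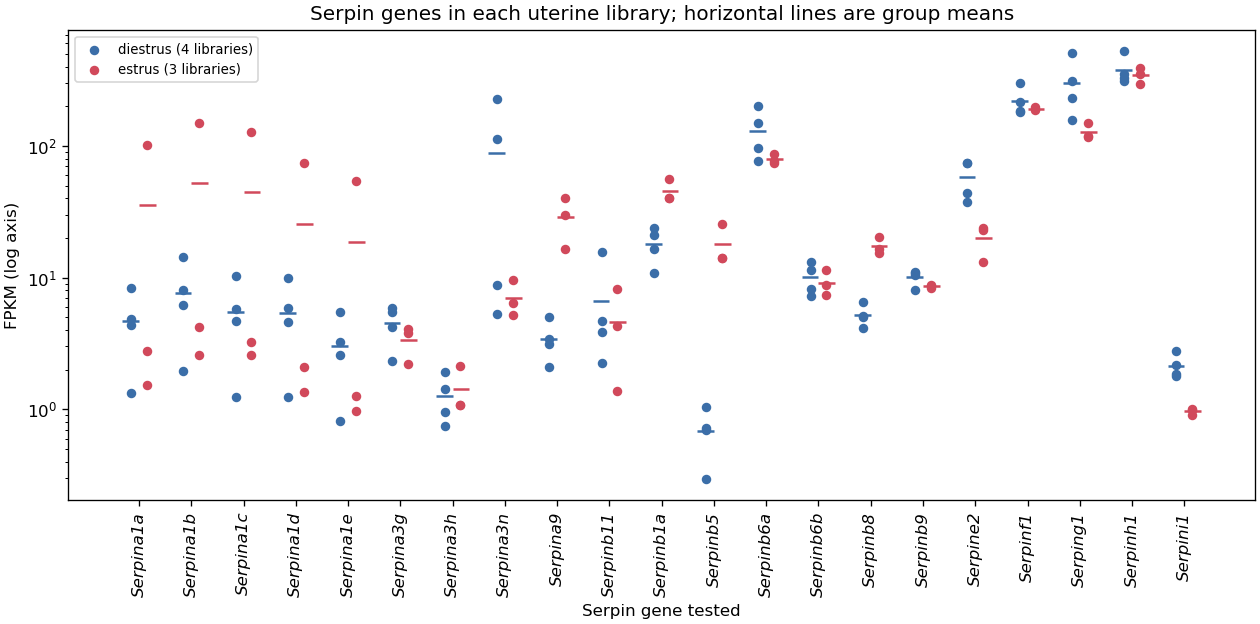
FPKM (log axis) of 21 of the 22 tested serpin genes, 1 point per library, blue for the 4 diestrus and red for the 3 estrus libraries, with a line at each group mean. Serpinb5, Serpina9, Serpinb8 and Serpinb1a have every estrus point above every diestrus point, and the high Serpina1 points all belong to 1 estrus library.

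Serpinh1, Serpinf1, Serping1 and Serpinb6a together made 52.3% to 85.85% of the summed FPKM of all members in each library, the lowest share being that of estrus replicate 3. Relative depth, read from the spacing of the lowest values, ran from 0.920 times (estrus replicate 3) to 1.36 times (diestrus replicate 2) that of estrus replicate 1, and absolute depth is unknown. The labelled tissue was checked on marker lists: no epithelium, stroma, smooth muscle or endothelium marker was at 0 in any library, and the 6 liver markers summed to at most 1.80 FPKM in any library. Fat and oviduct markers were present and uneven. The 6 fat markers summed to 30.3 to 149.6 FPKM in diestrus, highest in replicate 3, and to 7.56 to 51.5 in estrus. The 4 oviduct markers summed to 14.2 to 59.7 FPKM in diestrus, highest in replicate 2, and to 6.84 to 10.7 in estrus. In bulk tissue, fewer cells of a type and less RNA per cell cannot be told apart.

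Serpinb5 had the largest fold change of the tested members. It encodes maspin, a clade B serpin of epithelial cells without a known protease target (GRCm38 chromosome 1, 106861175 to 106883348, protein-coding). Its level was 0.691, 0.721, 1.05 and 0.297 FPKM in the diestrus libraries, in replicate order, and 14.1, 25.7 and 14.1 in the estrus libraries, so every estrus library stood more than 10 FPKM above every diestrus library. The mean rose from 0.689 ± 0.308 (SD, n = 4) to 17.97 ± 6.68 FPKM (SD, n = 3); on the log2 scale the fold change was 3.45 (SE 0.25, limma adjusted p = 0.000696).

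Serpina9, also called centerin and known from germinal centre B cells (chromosome 12, 103996615 to 104013652), was the only clade A member called. It stood at 4.999, 2.08, 3.43 and 3.13 FPKM in diestrus and at 16.6, 39.9 and 30.0 in estrus, and the lowest estrus library was over 3 times the highest diestrus library. The log2 fold change was 2.72 (SE 0.32, limma adjusted p = 0.00210). Serpinb8, an intracellular inhibitor of furin (chromosome 1, 107589926 to 107608978), was measured at 5.14, 6.49, 4.18 and 4.99 FPKM in diestrus and at 15.4, 20.3 and 16.6 in estrus. Both groups were narrow and did not overlap (log2 fold change 1.58, SE 0.16, limma adjusted p = 0.00145). Serpinb1a, an inhibitor of elastase and cathepsin G (chromosome 13, 32842092 to 32853206), stood at 23.9, 10.8, 20.9 and 16.4 FPKM in diestrus and 40.1, 56.3 and 40.3 in estrus. The groups did not overlap and the log2 fold change was 1.33 (SE 0.27, limma adjusted p = 0.0104), but the adjusted p was 0.0534 without estrus replicate 2. In an exact two-sided permutation test, each of the 6 called members gave p = 0.0571, the smallest that 35 assignments of the libraries allow, so this test cannot pass 0.05 here.

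Epithelial markers moved with these 4 genes. The share of all tested genes that rose was 17.2%, and 14.0% fell. Of 10 epithelium markers, 8 rose and none fell, with a median log2 fold change of 1.66, and their summed level was 877.9 to 1182 FPKM in diestrus and 3135 to 3679 in estrus; none was at 0. Krt7, a keratin with the highest estrus mean of the list, was at 114.8 FPKM in diestrus and 653.6 in estrus. The part of this shift in the 4 rises was not tested. Among the neutrophil markers, Elane, the elastase gene, was at 0 in all 7 libraries, which gives no level of the protein. The summed level of these markers was 2.54 to 4.96 FPKM in diestrus and 3.16 to 4.50 in estrus. The 2 tested ones went opposite ways and did not pass. S100a9 went from a mean of 1.03 FPKM in diestrus to 1.85 in estrus (limma adjusted p = 0.111). Csf3r went from 1.38 to 0.388 (limma adjusted p = 0.05085).

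**Figure D2:**
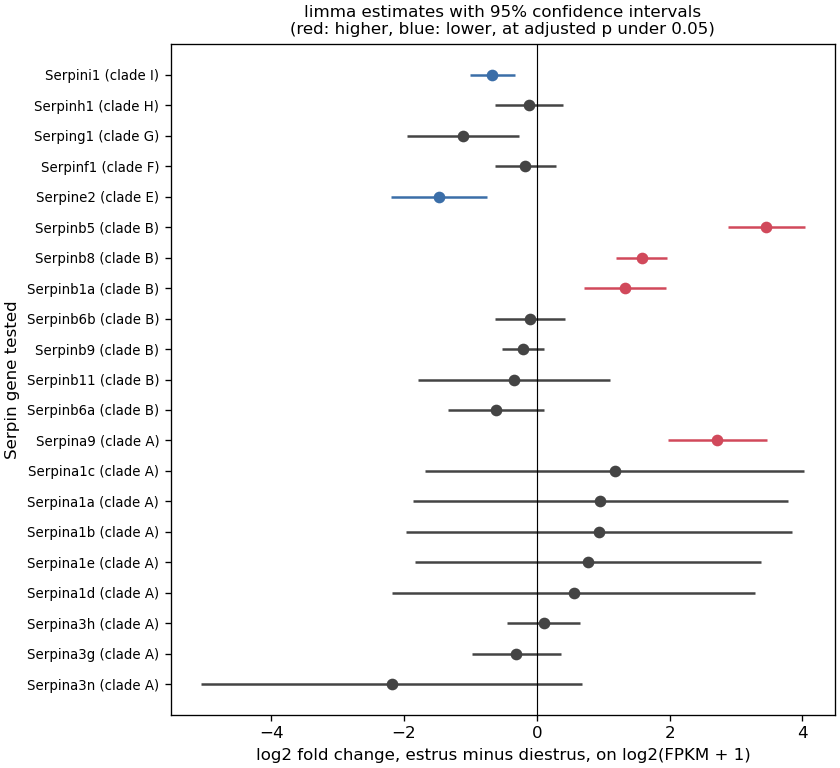
log2 fold change (estrus minus diestrus, on log2(FPKM + 1)) of 21 of the 22 tested serpin genes with its 95% confidence interval from limma, ordered by clade. The 4 red genes rose, the 2 blue genes fell, and the widest intervals belong to Serpina3n and the Serpina1 copies.

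The serpins of clotting, fibrinolysis and complement number 10, of which 4 were tested; none rose and 2 fell, where 14.0% of all tested genes fell, and 4 tested members give no result about the role as a group. Serpine2, protease nexin 1, an inhibitor of thrombin and the plasminogen activators (chromosome 1, 79794317 to 79858665), stood at 74.6, 74.1, 44.2 and 37.5 FPKM in diestrus and 23.8, 22.85 and 13.05 in estrus. The groups were separate, and within diestrus replicates 1 and 2 were above replicates 3 and 4. The mean went from 57.6 ± 19.5 (SD, n = 4) to 19.9 ± 5.96 FPKM (SD, n = 3); on the log2 scale the fold change was -1.47 (SE 0.31, limma adjusted p = 0.0130).

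Serpini1, neuroserpin, an inhibitor of tissue plasminogen activator (chromosome 3, 75557493 to 75642523), was low throughout: 1.87, 2.16, 1.80 and 2.75 FPKM in diestrus against 0.901, 1.01 and 0.991 in estrus. All estrus libraries lay below all diestrus libraries, and the log2 fold change was -0.67 (SE 0.15, limma adjusted p = 0.0150). Its adjusted p was 0.0507 without estrus replicate 1 and 0.0670 without estrus replicate 2.

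Serping1, the C1 inhibitor that blocks the complement proteases C1r and C1s and plasma kallikrein (chromosome 2, 84765360 to 84775444), did not pass. It stood at 157.7, 230.4, 310.4 and 511.8 FPKM in diestrus and 116.4, 118.0 and 149.4 in estrus, so the groups did not overlap but the diestrus libraries spread over 3-fold. Its log2 fold change was -1.11 (SE 0.37, limma adjusted p = 0.0526). The adjusted p was 0.0133 without diestrus replicate 1, 0.0482 with median-ratio scaling and 0.0223 with quantile normalization. Antithrombin Serpinc1, heparin cofactor Serpind1, Serpinf2 (the plasmin inhibitor), Serpina5, Serpina10 and Serpinb2 stayed at or under 0.444 FPKM in every library.

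Markers of several cell types were lower in estrus, as these genes were. For comparison, 14.0% of all tested genes fell and 17.2% rose. All 8 endothelium markers fell (median log2 fold change -1.24), with a summed level of 249.2, 375.9, 444.6 and 591.8 FPKM in the diestrus libraries and 141.4 to 179.8 in estrus. Within diestrus this order was the same as that of Serping1 and opposite to that of Serpine2, which was highest in replicates 1 and 2. Serpini1 followed neither order. The order of Serping1 was not particular to endothelium: Serpinf1, Serpinb6a and the stroma markers Pdgfra, Dcn, Hand2 and Hoxa11 had it as well. The other stroma markers, Vim, Thy1, Col1a1, Col3a1, Lum and Pdgfrb, did not. Of 10 stroma markers 4 fell and none rose, and their sums overlapped, at 2854 to 5279 and 3187 to 4172 FPKM. Of the mast cell markers 4 of 5 tested fell (sums of 31.1 to 63.3 FPKM against 9.77 to 14.3), of the macrophage and dendritic cell markers 5 of 8, with 1 rise, and of the mesothelium markers 2 of 4. Their part in the falls of Serpine2 and Serpini1 and in the lower values of Serping1 was not tested.

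The proteases that serpins act on changed in both directions. Of 31 tested target proteases 10 rose and 8 fell, with a median log2 fold change of -0.35. Of all tested genes 17.2% rose and 14.0% fell. Without 1 library at a time, 9 to 10 proteases rose and 2 to 11 fell. There were 5 falls without diestrus replicates 2 or 4 or estrus replicate 3, 3 when estrus replicate 1 was omitted and 2 when estrus replicate 2 was. With a mean of 5 FPKM or more required, 3 fell. Furin, the proprotein convertase inhibited by Serpinb8, rose from 37.8 ± 2.47 (SD, n = 4) to 74.8 ± 6.39 FPKM (SD, n = 3); on the log2 scale this was 0.96 (SE 0.11, limma adjusted p = 0.00198). Prss22, a tryptase of epithelia, rose from 1.60 ± 0.719 to 20.9 ± 10.15 FPKM, by 3.01 on log2(FPKM + 1). Masp1, a protease of the lectin pathway of complement, fell from 6.90 ± 2.15 to 0.654 ± 0.210 FPKM, by 2.22 on that scale, which understates changes near 0. The known targets of Serpine2 and Serping1 are named here outside the naming rule, after their values were seen. Plau, urokinase, rose from 20.9 ± 10.4 to 88.2 ± 21.1 FPKM (log2 fold change 2.13, limma adjusted p = 0.00815), while Plat, tissue plasminogen activator, fell by 2.06 on the log2 scale (adjusted p = 0.0480), a p that was 0.0758 to 0.138 without diestrus replicates 1 or 2 or any estrus replicate. C1s fell from 130.0 ± 36.6 to 47.7 ± 7.12 FPKM (adjusted p = 0.00479). Of the genes for C1r, C1rb did not pass (log2 fold change -0.86, adjusted p = 0.0652, groups overlapping), and C1ra fell by 1.10 on the log2 scale (adjusted p = 0.0382), a p that was 0.0542 to 0.136 without diestrus replicates 2, 3 or 4 or estrus replicates 1 or 2. Plasminogen (Plg) and prothrombin (F2) were at most at 0.0360 FPKM in any library.

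Where 17.2% of all tested genes rose and 14.0% fell, 4 of 17 tested serpin receptors and cofactors rose and 3 fell (median -0.25). Leaving out single libraries gave 1 to 4 of each, with 1 rise without estrus replicate 2 and 1 fall without estrus replicate 1 or estrus replicate 2. Lrp8, a receptor of the low density lipoprotein receptor family, rose from 1.06 ± 0.45 to 11.02 ± 3.70 FPKM, and F2r, the thrombin receptor, fell from 46.2 ± 20.9 to 8.58 ± 2.45 FPKM (limma adjusted p = 0.00152 and 0.00760). The syndecan Sdc1 rose by 1.04 on the log2 scale, with an adjusted p of 0.0138 that was 0.0691 without estrus replicate 2. Of other families of protease inhibitors, 3 of 21 tested genes rose and 8 fell (median -0.65), against 0 rises and 4 falls without estrus replicate 2 and 2 rises without diestrus replicates 3 or 4 or estrus replicates 1 or 3. With quantile normalization 1 rose and 7 fell. Wfdc1 fell from 61.9 ± 10.99 to 9.22 ± 3.13 FPKM, Tfpi, the tissue factor pathway inhibitor, from 26.3 ± 3.69 to 13.4 ± 1.44, and Cd109 from 3.95 ± 0.43 to 1.93 ± 0.16.

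Serpina1a to Serpina1e, which encode the antitrypsins that the liver secretes, were set apart by 1 library. Serpina1b, the highest of the copies, stood at 1.96, 14.2, 6.15 and 8.12 FPKM in diestrus replicates 1 to 4, at 4.22 and 2.59 in estrus replicates 1 and 2, and at 150.1 in estrus replicate 3. Serpina1a, Serpina1c, Serpina1d and Serpina1e were at 102.1, 127.4, 73.7 and 53.7 FPKM in estrus replicate 3, which was 7.45 to 12.5 times the highest other library for the 5 copies. Summed over the copies, the level was 507.0 FPKM in estrus replicate 3, 13.6 and 9.04 in the other estrus libraries, and 6.60, 48.2, 22.4 and 27.8 in diestrus.

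Diestrus replicate 2 thus had the second highest level of the 7 libraries, and the groups overlapped at every copy. Ratios between copies rest on the uncertain split of reads, and those given here share Serpina1b as denominator. The ratio of Serpina1a to Serpina1b was 0.586 to 0.711 over the 7 libraries. For the other copies the ratios did not overlap between the phases, with no test made. No background of such ratios was computed, and the 40.6% of all tested genes without overlap refers to levels. Serpina1c was at 0.630 to 0.759 in diestrus and 0.764 to 1.005 in estrus, so its groups nearly met. Serpina1d was at 0.638 to 0.748 and 0.491 to 0.522, and Serpina1e at 0.388 to 0.420 and 0.2998 to 0.373. Log2 fold changes were 0.56 to 1.17 with limma adjusted p values of 0.484 to 0.736, and without estrus replicate 3 they were negative, at -1.04 (Serpina1d) to -0.51 (Serpina1c). Liver markers were not raised in that library: in estrus replicate 3 Alb, the albumin gene, was listed at 0 and the 6 markers summed to 0.186 FPKM. The sums were 1.80 and 1.73 FPKM in diestrus replicates 3 and 4, where Fgb, a fibrinogen gene, was at 1.52 and 1.36, and 0.0876 to 0.315 in the other libraries. Serpina1f was listed at 0 in all libraries.

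The antichymotrypsin-like Serpina3 genes were set apart by a different pair of libraries. Serpina3n, a secreted inhibitor induced in inflammation (chromosome 12, 104406646 to 104414334), stood at 5.26 and 8.86 FPKM in diestrus replicates 1 and 2, at 227.6 and 113.7 in diestrus replicates 3 and 4, and at 5.19, 6.37 and 9.53 in estrus. Only those 2 diestrus libraries were above 10 FPKM, and the log2 fold change of -2.19 had an SE of 1.24 and a limma adjusted p of 0.205. Serpina3c and Serpina3f, which were below the filter, were also highest there, at 3.43 and 1.45 and at 4.49 and 2.14 FPKM, against at most 0.421 and 0.795 in the other libraries. Of their stretches of 50 bases, 4.25% and 10.7% also occurred in another serpin transcript, most often that of Serpina3m and of Serpina3g. How far reads of other members, such as Serpina3n, enter these low values was not tested. Serpina3g, an intracellular relative, was at 5.91 and 5.47 FPKM in diestrus replicates 3 and 4 and at 2.21 to 4.24 in the rest. Serpina3i, also below the filter, was at 0.586 and 0.749 FPKM in those 2 libraries and highest in diestrus replicate 2, at 0.832. The pseudogene Serpina3h ranged from 0.742 to 2.12 with no such pattern.

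Some uterine gland markers were also highest in these 2 libraries, and others were not. Prss29, a gland protease with the highest mean of the list, was at 7952 and 6335 FPKM in diestrus replicates 3 and 4, against 29.5 and 155.5 in diestrus replicates 1 and 2 and 5.34 to 67.4 in estrus, and 3 of 5 tested gland markers fell. Spink3 (5835 and 4900 FPKM) and Wfdc3 (21.4 and 20.5) were likewise highest there, while Foxa2, a gland transcription factor, was at 12.2, 10.3, 8.54 and 7.41 FPKM in diestrus replicates 1 to 4 and Cxcl15 at 35.1, 8.15, 0.351 and 0.556. The 6 gland markers summed to 102.7 to 13824 FPKM in diestrus and 14.2 to 83.9 in estrus, sums that Prss29 and Spink3 made up for the most part in diestrus replicates 2, 3 and 4, and Ttr was at 0 in estrus replicates 2 and 3. Of the T and NK cell markers, Gzmb, the granzyme that Serpina3n and Serpinb9 inhibit, was at 23.8 and 21.2 FPKM in diestrus replicates 3 and 4 and at 2.22 to 6.28 elsewhere, with sums over the 8 markers of 18.0 to 79.4 FPKM in diestrus and 8.19 to 17.2 in estrus; 2 of 6 tested fell. The granzyme and NK genes Gzma, Nkg7, Ncr1 and Prf1 were also highest in those 2 libraries, but the T cell gene Cd3g was at 1.66, 2.54, 2.63 and 2.64 FPKM in diestrus and Cd3e at 0.611, 0.705, 0.399 and 1.30. Beside the falls of 3 of 5 tested gland markers and 2 of 6 tested T and NK cell markers, 14.0% of all tested genes fell. The part of these cells in the Serpina3n values was not tested.

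**Figure D3:**
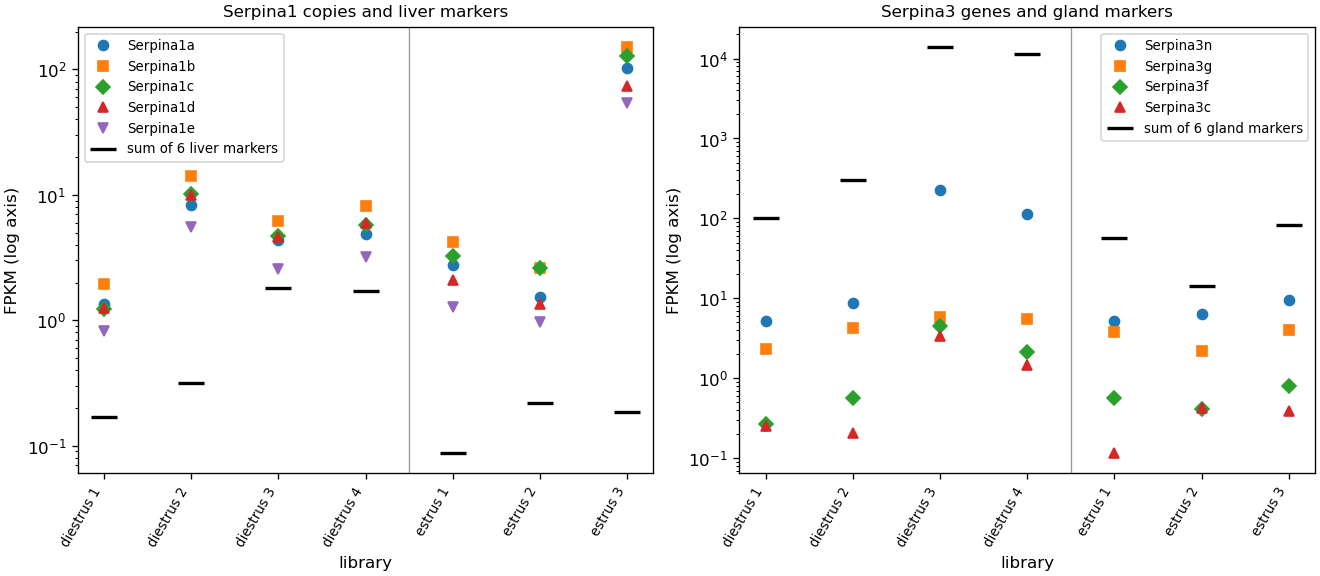
FPKM (log axis) in each of the 7 libraries of the Serpina1 copies with the sum of 6 liver markers (left) and of 4 Serpina3 genes with the sum of 6 gland markers (right); a vertical line separates diestrus from estrus. The Serpina1 copies peak in estrus 3, where the liver sum is 0.186, and Serpina3n peaks in diestrus 3 and 4 at 227.6 and 113.7.

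The abundant members without a protease target did not pass the test. Serpinh1, also called Hsp47, is the collagen chaperone of the endoplasmic reticulum (chromosome 7, 99345375 to 99353239) and had the highest mean over all libraries of any member. It was measured at 522.5, 325.7, 353.2 and 310.7 FPKM in diestrus and 387.3, 351.2 and 292.9 in estrus, with overlapping groups and a log2 fold change of -0.11 (95% interval -0.63 to 0.40, limma adjusted p = 0.712). Serpinf1, the pigment epithelium-derived factor, which restrains vessel growth (chromosome 11, 75410029 to 75422623), was at 180.3, 184.1, 215.3 and 302.6 FPKM in diestrus and 189.9, 187.2 and 197.5 in estrus. Its log2 fold change was -0.17 (95% interval -0.63 to 0.29, limma adjusted p = 0.528).

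Of 24 collagen chains and collagen-folding genes, partners of Serpinh1, 6 rose and 4 fell (median 0.15), against 17.2% and 14.0% of all tested genes. Without 1 library at a time, 2 to 7 rose and 0 to 4 fell, with 2 rises without estrus replicates 2 or 3, 3 rises without diestrus replicate 4, and 2 falls or fewer without diestrus replicate 4 or any estrus replicate. With quantile normalization 3 rose. Col6a3 rose from 87.9 ± 28.6 to 297.3 ± 53.8 FPKM and the lysyl hydroxylase Plod2 from 24.4 ± 5.27 to 56.8 ± 3.99, while Crtap, a part of the prolyl 3-hydroxylation complex, fell from 54.5 ± 5.93 to 34.3 ± 3.27 (limma adjusted p = 0.00326, 0.00395 and 0.00974, the last 0.0597 without estrus replicate 2). Of the fibrillar chains, named outside the rule after their values were seen, Col5a1 rose from 45.8 ± 18.0 to 97.4 ± 10.4 FPKM (adjusted p = 0.0218), while Col1a1, Col1a2, Col3a1 and Col5a2 did not pass (adjusted p = 0.126, 0.101, 0.858 and 0.887).

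The other expressed clade B members did not pass. Serpinb6a, an intracellular inhibitor of cathepsin G and trypsin-like proteases (chromosome 13, 33917918 to 34002794), stood at 76.4, 97.3, 149.6 and 199.8 FPKM in diestrus and 74.0, 77.3 and 87.3 in estrus. The 2 highest libraries were diestrus replicates 3 and 4, the log2 fold change was -0.62 (SE 0.31, limma adjusted p = 0.163), and without diestrus replicate 1 the adjusted p was 0.0428. Serpinb9, the intracellular granzyme B inhibitor, was even across the libraries, at 8.04 to 11.1 FPKM in diestrus and 8.39 to 8.81 in estrus (log2 fold change -0.20, 95% interval -0.52 to 0.11). Serpinb6b was at 7.29 to 13.2 FPKM in diestrus and 7.44 to 11.4 in estrus. Serpinb11 varied most within the groups, from 2.26 to 15.6 FPKM in diestrus and from 1.39 to 8.19 in estrus.

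Most members of clades A and B lie in 3 gene clusters, and within each cluster expressed genes stood among genes at or near 0. On chromosome 12, 9 of 23 clade A genes were tested: Serpina9 rose although its neighbours Serpina11 and Serpina12 were at most at 0.169 and 0.00671 FPKM. On chromosome 1, 12 clade B genes run from Serpinb5 to Serpinb8. These outermost genes both rose, and of the genes between them Serpinb11 alone was tested, while Serpinb13, Serpinb3a, Serpinb3b and Serpinb3d were at 0 in every library. On chromosome 13, 4 of 15 genes were tested and Serpinb1a alone was called.

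**Figure D4:**
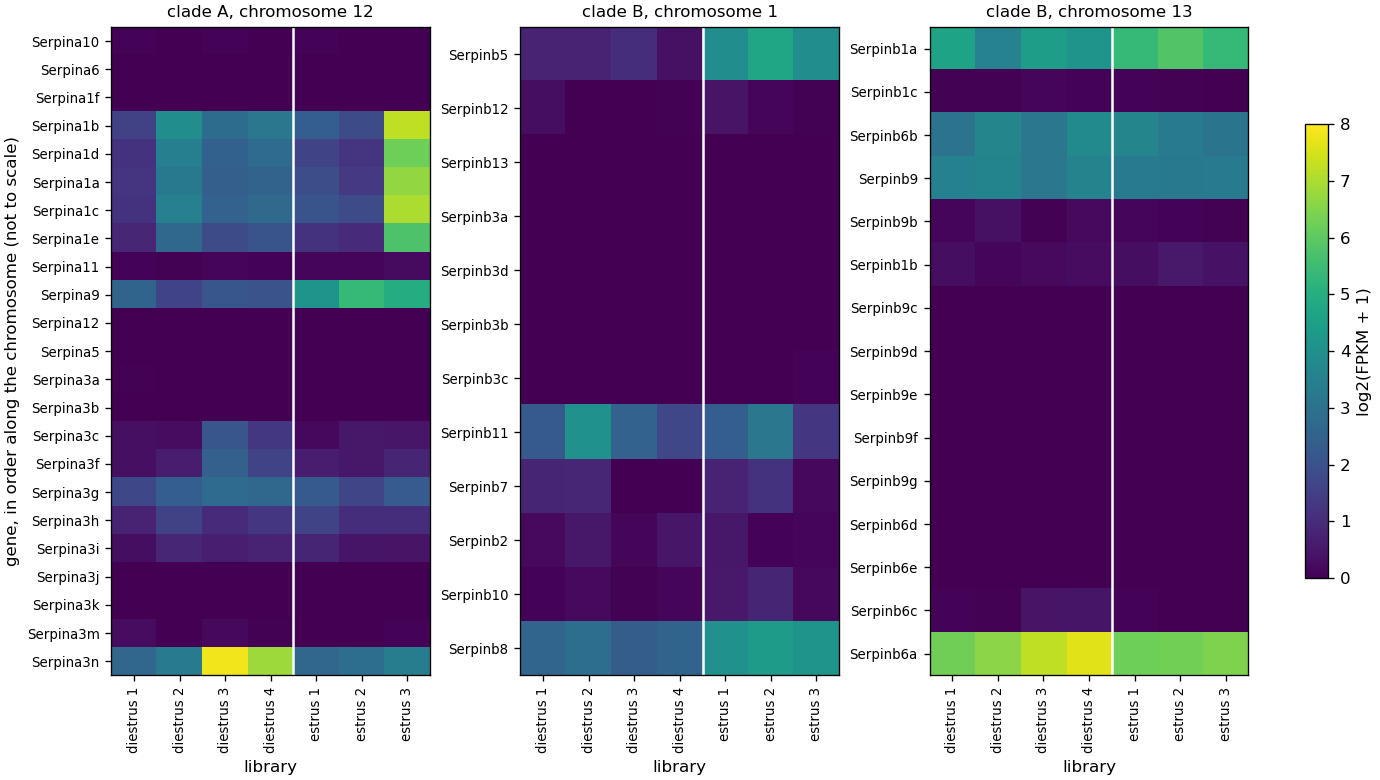
log2(FPKM + 1) of clade A genes on chromosome 12 and clade B genes on chromosomes 1 and 13, in chromosome order and not to scale; columns are the 7 libraries, with a white line between diestrus and estrus. Bright rows stand among rows at or near 0, and Serpinb5 and Serpinb8, at the ends of their cluster, are both brighter in estrus.

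The members below the filter were low everywhere. Besides Serpina3c and Serpina3f, only Serpinb7 reached 1 FPKM in any library, at 1.26 in estrus replicate 2. Serpinb10 was at 0.128 to 0.776 FPKM in estrus and 0.0311 to 0.162 in diestrus. The 15 genes at 0 included 5 of clade A, 9 of clade B and Serpini2 of clade I. Of clade B, these were Serpinb3a, Serpinb3b, Serpinb3d, Serpinb6e, Serpinb9d, Serpinb9e, Serpinb9f, Serpinb9g and Serpinb13. Of the stretches of 50 bases, 28.4% (Serpinb9e) to 52.8% (Serpinb9f) of Serpinb9d to Serpinb9g and 14.3% of Serpinb3b also occurred in another serpin transcript. How shared reads were treated is not known, so a listed 0 need not mean no expression for these genes.

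Promoter windows from RefSeq on GRCm38 (250 bases before to 50 after a gene's start) were given for 17 of the 22 tested members, without Serpina9 and Serpinb1a among those that rose, and were searched on both strands for 3 short motifs. None of these 18 windows held the palindromic estrogen response element, GGTCA and TGACC spaced by 3 bases. Of all 32851 windows 0.0700% held it. An element this rare is seldom met in so few windows, so its absence gives no result about estrogen. The STAT element, TTC and GAA spaced by 3 bases, was found in 2 of the 18 windows (11.1%), those of Serpina3g and Serpinb6a, against 8.30% of all windows. The core of the interferon-stimulated element, 2 GAAA repeats spaced by 2 bases, was also found in 2 (11.1%). These were windows of Serpinb6a and Serpinb9, against 3.44% of all windows. These are matches of letters in short windows and not evidence of binding.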

How the data were processed

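RNA had been purified on RNeasy columns with DNase treatment and made into TruSeq libraries, per the labels' protocols. The table holds FPKM as deposited by the authors. The submitters' processing notes list TopHat2 2.0.4 and mm10 without a role; what computed FPKM, and on which annotation, is not given in the sources used here. Each column carries 1 sample's description (0 columns were unmatched). The 13920 genes reaching 1 FPKM in 3 or more libraries were tested on log2(FPKM + 1), which understates changes near 0, with limma 3.58.1 (R 4.3.3), an intensity trend, two-sided p-values and Benjamini-Hochberg adjustment over them all. Members named with full values were those called, those averaging at least 10 FPKM in either group and the highest of each clade; partner lists gave up to 3 called genes with the smallest p, marker lists the genes with the highest mean. Members and lists were chosen with earlier results of these data known. Positions are from RefSeq GRCm38.p6, in which 62 of 62 members were found. The fit was tested on simulated data. Alternatives were other pseudocounts (0.1, 5), other filters (none, or an average of 5 FPKM), median-ratio and quantile scaling, a replicate block, robust moderation, and omission of each library. Plots were made with matplotlib 3.10.9. The values of 1 tested member are not reported here.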

Additional observations from a re-analysis of the deposited data

How the results depend on the processing

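Serpina9, Serpinb5, Serpinb8 and Serpine2 kept their direction and an adjusted p under 0.05 in all 15 alternatives. The number of genes called was 1433 to 5311 when single libraries were left out, 854 to 2866 higher and 579 to 2445 lower, with the fewest without estrus replicate 2; 2559 were called without diestrus replicate 4 and 2633 without estrus replicate 1. Of serpins, 4 to 8 were then called, 3 to 4 higher and 1 to 4 lower. With a mean of at least 5 FPKM, 1181 genes and 1 serpin were lower, because Serpini1 was no longer tested. The replicate block called 2281 genes, 1299 higher and 982 lower, and 1 serpin lower: Serpinb1a and Serpini1 then had adjusted p values of 0.0525 and 0.0739. Same-numbered libraries correlated in their deviations from the group means at 0.198, 0.0243 and 0.169, and not every library correlated best with its own number. With so few libraries, these correlations cannot decide whether the numbers pair the samples, and no label says that they do. With the block 5 target proteases were lower, 1 other inhibitor was higher and 4 lower, and 3 collagen genes were higher and 2 lower. Without estrus replicate 3 the log2 fold changes of Serpina1a to Serpina1e reversed to -0.73, -0.77, -0.51, -1.04 and -0.79 and that of Serpinb6b to 0.025; Serpinb6b also reversed to 0.035 with the block and without diestrus replicate 4, and Serpinh1 to 0.052 without diestrus replicate 1. The highest or lowest values with a single library left out were 1.94, 1.93, 2.07, 1.45 and 1.61 for Serpina1a to Serpina1e (without estrus replicate 2), and -0.25 for Serpinb6b and -0.20 for Serpinh1 (without estrus replicate 1). None of the reversed values passed the test, and the cause was not tested. FPKM give no counts, so no counting interval could be set on low members.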

Other observations

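The rise of the Serpina1 copies in estrus replicate 3 was shared by few other rows. Rows of at least 5 FPKM in a library and more than 4 times their highest value in any other library, leaving out rows at 0 in all others, numbered 14 in estrus replicate 3, of which 5 were the Serpina1 copies, and 2 to 6 in each of the other libraries, with no serpin among them. The remaining rows in estrus replicate 3, chosen after their values were seen, were Klk1, Tcrb, Krt84, Akr1c18, Slc26a4, Ddx60, Ntn5, Cyp3a13 and Ly6f. Klk1, tissue kallikrein, stood at 98.2 FPKM there, at 1.47 and 1.05 in the other estrus libraries and at 9.53 to 22.9 in diestrus. The row named Tcrb was at 41.6 FPKM against at most 3.27 elsewhere, and Akr1c18, the enzyme that inactivates progesterone, at 20.9 against at most 2.58.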
